A study of Homo sapiens with 6 samples.

Results

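The 32 genes described here encode the enzymes of glycolysis, the carriers that bring glucose into the cell and take lactate out, the regulators of phosphofructokinase and pyruvate dehydrogenase, and the short branch that leads from glucose to glycogen. They were listed by name as members of the pathway, with earlier results of these data known although no measured value entered the rule, and all 32 were found among the 58302 gene IDs counted. Gene expression had been measured by poly(A)-selected RNA sequencing in A375, a human melanoma cell line grown in DMEM with fetal bovine serum. The empty vector group held 3 libraries of A375 cells with a control vector, and the HMGB2OE group held 3 libraries of A375 cells that stably overexpressed HMGB2, a DNA-bending chromatin protein that the study linked to invasion under mechanical confinement. The study made its stable lines by lentiviral transduction followed by blasticidin or puromycin selection, so both groups came from the same parental line. The replicates were pellets of cells, which the study describes as technical, and p-values therefore measure the spread between pellets of a line and not between independent transductions.

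Glycolysis splits glucose into pyruvate in the cytosol and yields ATP without oxygen. Its first part spends ATP to trap and activate the sugar, and its second part, the payoff steps, makes ATP and NADH. Lactate dehydrogenase regenerates NAD by turning pyruvate into lactate, and tumour cells, melanoma cells among them, are known for exporting lactate even when oxygen is present. Many genes of the pathway are known targets of the hypoxia-inducible factors (HIF), which bind a short core sequence in their regulatory regions.

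Reads assigned to genes numbered between 45925053 and 56755212 per library. HMGB2 itself, the check of the labels, had 7250, 7729 and 7562 normalized counts in the empty vector libraries and 15095, 16848 and 14609 in the HMGB2OE libraries, a log2 fold change of 1.05 (SE 0.10, adjusted p = 4.4e-22). Normalized counts are read counts divided by the size factor of the library. Of 8 melanocyte markers, MITF (1381 to 1719) and S100B (3346 to 3841) were well measured. SOX10 was seen only when reads shared with a gene on the opposite strand were kept (32277 to 52279). PMEL had 50 to 67 (1395 to 2178 with such reads kept) and MIA 14 to 27, and the pigment genes MLANA, TYR and DCT lay between 0 and 11. The libraries do not keep the strand, with 50.07% to 50.17% of reads in the first strand column. Shared reads may therefore belong to either gene, and they do not measure SOX10 or PMEL alone. Among markers of other cell types, PTPRC was at 0 and ALB at 0 to 1, PECAM1 had 26 to 55, DCN 91 to 160, EPCAM 212 to 372, KRT14 421 to 694 and COL1A1, a fibroblast collagen gene, 1609 to 3938. In bulk samples, a change in the make-up of the cells and a change in RNA per cell cannot be told apart.

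Empty vector replicate 3 differed from both other empty vector libraries, which bears on most of the results below. Over all genes, the chi-square per degree of freedom was 13.5 between empty vector replicates 1 and 2, but 73.9 and 81.5 between each of them and replicate 3, against 16.5 to 35.7 among the HMGB2OE libraries. The keratin gene KRT5 had 5, 12 and 279 normalized counts in empty vector replicates 1, 2 and 3 and between 200 and 289 with HMGB2. COL1A1 had 2087, 1609 and 3120 against 2880, 2937 and 3938, with a log2 fold change of 0.52 (adjusted p = 0.208) that became 0.82 without this library (adjusted p = 5.92e-07) and 0.55 with a term for the third replicates (adjusted p = 7.89e-07). In 25 of the 32 glycolysis genes, empty vector replicate 3 lay outside the range of replicates 1 and 2 on the side of the HMGB2OE mean. The same count was not made over all genes, so it cannot be read as particular to glycolysis. The part of these differences in the results was not tested, and the counts of called genes and of genes with the groups apart are given with and without this library.

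With HMGB2 overexpression, 2 of the 32 genes rose and none fell, by amounts under 0.4 on the log2 scale. They were PFKFB4, a regulator of phosphofructokinase, and ALDOC, the brain-type aldolase. This is 6.25% of the genes, beside 2.29% of the 18836 genes tested across the genome that were called higher and 2.64% that were called lower (DESeq2, adjusted p under 0.05). At an unadjusted p under 0.05 there were 12 higher and 0 lower, beside 6.98% and 7.31% of all genes tested. edgeR called 1 higher and 0 lower, beside 1.28% and 1.52% of all genes, and at an unadjusted p under 0.05 it gave 10 and 0, beside 7.87% and 8.67%. Log2 fold changes of 0.20 to 0.35 that did not pass the test with all 6 libraries were found in 11 genes from several steps, namely SLC2A3, PFKFB3, TPI1, PGK1, PGAM1, ENO2, PKM, LDHA, PDK3, GBE1 and UGP2. In the other direction the largest were PFKFB2 (-0.21), PFKP (-0.20) and SLC2A1 (-0.18), which did not pass either. Of the 32 genes, 24 had a positive and 8 a negative log2 fold change, with a median of 0.10, while the median over all genes tested was 0.00. In 11 genes (34.4%) every HMGB2OE library lay above every empty vector library, and in 1 gene every one lay below. Over all genes with a mean of 10 or more normalized counts, the groups were apart in this way in 11.4% for the higher and in 11.4% for the lower direction. Without empty vector replicate 3, a count chosen after seeing the data, the groups were apart in 20 genes higher and 5 lower, beside 25.4% and 26.2% of all genes.

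**Figure D1:**
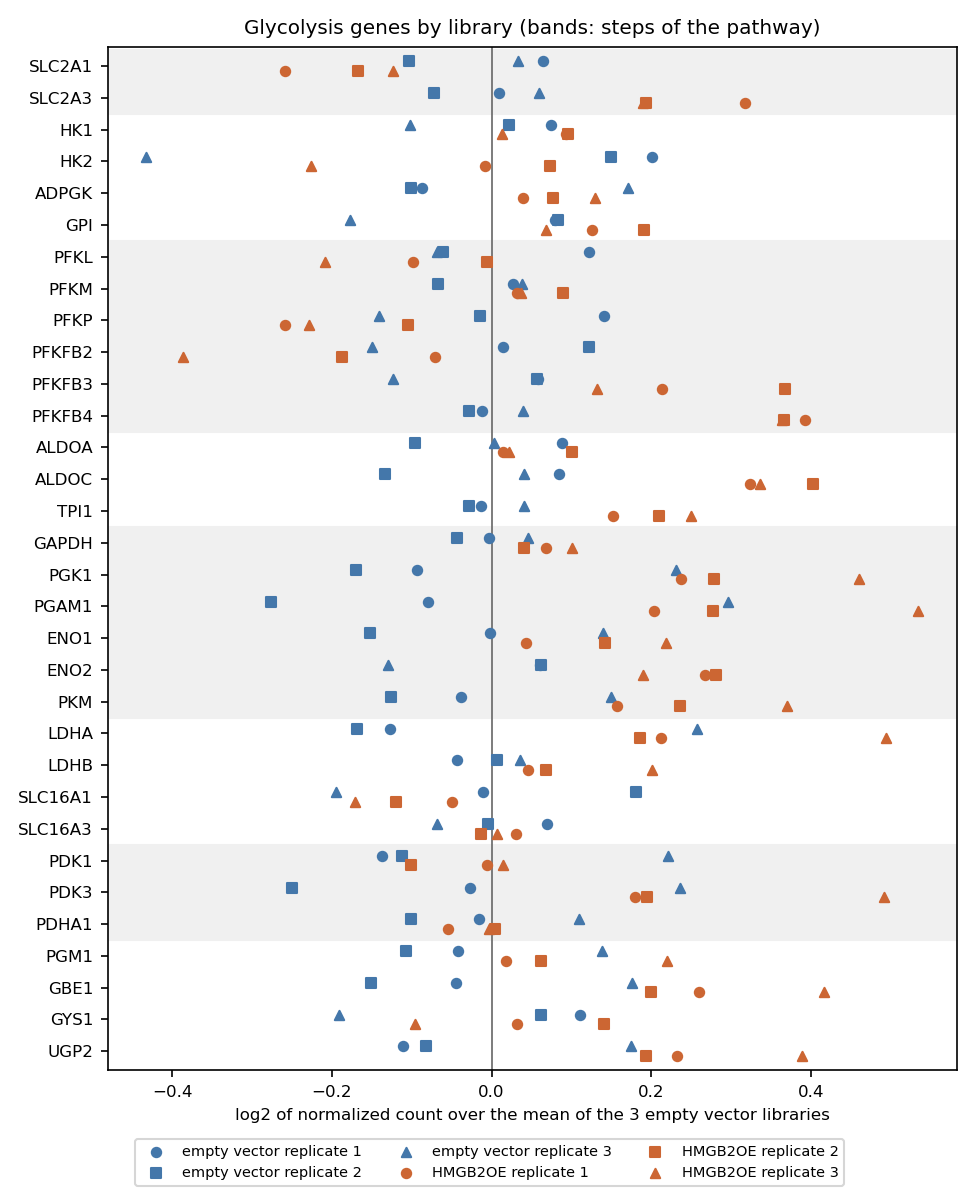
Normalized count of each of the 32 genes in each library, as the log2 of its ratio to the mean of the 3 empty vector libraries, with bands marking the steps of the pathway. PFKFB4 and ALDOC show both groups well apart, while for PGK1, PGAM1, LDHA, GBE1 and UGP2 the triangle of empty vector replicate 3 sits near the HMGB2OE libraries.

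The count depended on empty vector replicate 3. When that library was left out, 11 genes were called higher (34.4%) and 1, PFKP, lower, beside 8.31% and 9.46% of all genes tested. At an unadjusted p under 0.05 there were 13 higher and 4 lower, beside 14.5% and 15.3%. The 11 were PFKFB4, ALDOC, the glucose carrier SLC2A3, TPI1, PGK1, PGAM1, PKM, LDHA, the kinase PDK3 and the glycogen enzymes GBE1 and UGP2. With all 6 libraries and a term that separates the third replicates from the others, 13 genes were called higher (40.6%) and 2, PFKP and SLC2A1, lower, beside 8.71% and 8.61% of all genes. That fit added PFKFB3 and ENO2 to the 11 genes. When any of the other 5 libraries was left out in turn, 0 of the 32 genes were called in either direction by DESeq2. Over all genes these 5 fits called 0.839% to 1.15% higher and 1.13% to 1.47% lower. At an unadjusted p under 0.05 they gave 3 to 7 of the 32 genes higher and 0 lower, beside 3.89% to 4.84% and 4.14% to 5.71% of all genes.

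**Figure D2:**
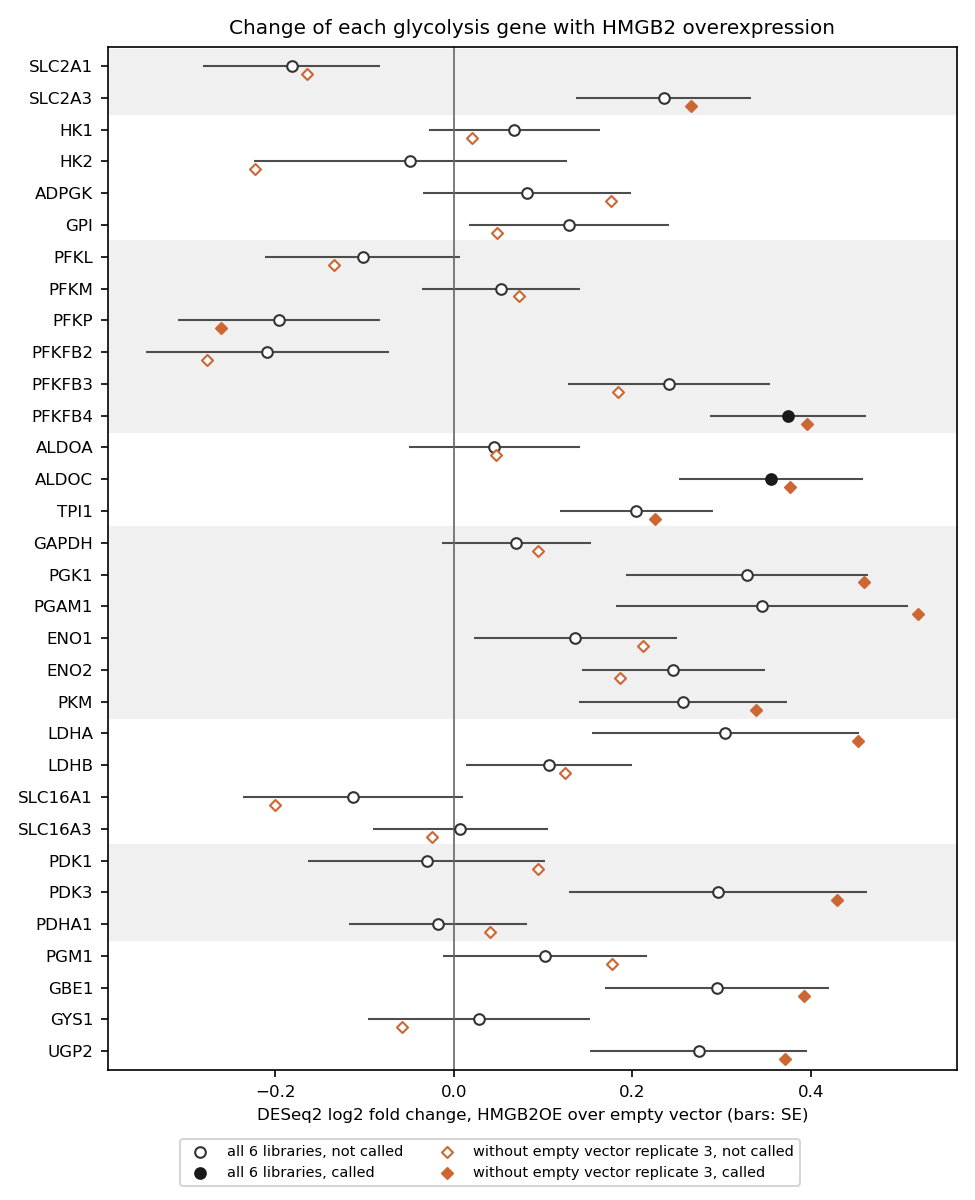
DESeq2 log2 fold change of each gene, HMGB2OE over empty vector, with all 6 libraries (circles, bars are the SE) and without empty vector replicate 3 (diamonds), filled where the adjusted p was under 0.05. Filled circles are seen for PFKFB4 and ALDOC alone, and 12 diamonds are filled, of which PFKP lies to the left of 0.

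PFKFB4 (ENSG00000114268, hg38 chromosome 3, 48517684 to 48562015, minus strand) encodes a bifunctional enzyme that makes and removes the fructose bisphosphate that activates phosphofructokinase. It had 3371, 3334 and 3495 normalized counts in the empty vector libraries and 4464, 4384 and 4375 in the HMGB2OE libraries. The groups did not overlap, and the spread within each was a small part of the distance between them. The log2 fold change was 0.37 (SE 0.087, adjusted p = 0.00102), a rise of 29.6%. It was also called by edgeR (adjusted p = 0.0441). The call was lost when any library other than empty vector replicate 3 was left out, with log2 fold changes of 0.36 to 0.40 over the 6 such fits.

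ALDOC (ENSG00000109107, hg38 chromosome 17, 28573115 to 28576948, minus strand) encodes an aldolase, which splits the activated sugar into its triose phosphates. Its normalized counts were 4679, 4022 and 4537 with the empty vector and 5524, 5835 and 5572 with HMGB2. Again every HMGB2OE library lay above every empty vector library. The log2 fold change was 0.36 (SE 0.10, adjusted p = 0.0171), a rise of 27.9%. ALDOC was not called by edgeR (adjusted p = 0.0810), and like PFKFB4 it lost the call when any library other than empty vector replicate 3 was left out, with log2 fold changes of 0.29 to 0.40. Reads shared with an overlapping gene on the opposite strand were left out, and the count used here held 68.2% of what the strand-specific columns hold in sum. With that sum in place of the count the DESeq2 adjusted p was 0.00908, but the sum holds shared reads that may belong to the other gene.

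The sequence before the start of these 2 genes, and of PGK1 and LDHA, is shown because PGK1 and LDHA are textbook HIF targets and all 4 were called higher without empty vector replicate 3. The sequences are from RefSeq on GRCh38.p14, and each is the longest stretch of the 250 bases before the RefSeq start that lies outside every exon annotated by GENCODE, written 5′ to 3′ on the strand of the gene. Capitals mark the HIF core, searched as ACGTG or GCGTG on both strands, together with the E-box CACGTG, the binding sequence of MYC-type factors, which contains ACGTG on both strands and was counted as 1 match. The PFKFB4 stretch is chr3:48556924-48556982 (minus strand), the ALDOC stretch chr17:28576949-28577145 (minus strand), the PGK1 stretch chrX:78103998-78104247 (plus strand) and the LDHA stretch chr11:18394313-18394559 (plus strand). The GENCODE span of PFKFB4 runs to 48562015 and that of PGK1 begins at 77910739. For both genes the RefSeq start used here thus lies well inside that span.
PFKFB4: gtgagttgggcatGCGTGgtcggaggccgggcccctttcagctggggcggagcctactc
ALDOC: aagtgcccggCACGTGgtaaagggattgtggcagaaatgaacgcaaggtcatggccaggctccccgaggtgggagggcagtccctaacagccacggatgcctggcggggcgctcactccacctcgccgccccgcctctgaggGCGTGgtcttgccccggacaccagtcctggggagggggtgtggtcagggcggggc
PGK1: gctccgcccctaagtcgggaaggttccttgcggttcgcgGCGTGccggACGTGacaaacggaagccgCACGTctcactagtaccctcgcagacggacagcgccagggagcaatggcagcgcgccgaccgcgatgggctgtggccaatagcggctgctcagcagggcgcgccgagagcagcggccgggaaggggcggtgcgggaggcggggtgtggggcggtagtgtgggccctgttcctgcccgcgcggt
LDHA: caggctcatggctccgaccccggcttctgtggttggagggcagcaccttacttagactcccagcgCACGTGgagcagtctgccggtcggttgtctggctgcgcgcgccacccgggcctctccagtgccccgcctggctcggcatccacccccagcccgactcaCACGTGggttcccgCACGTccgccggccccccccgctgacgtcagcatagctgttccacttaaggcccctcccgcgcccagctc

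Over the full 250 bases, PFKFB4 held 1 match, at position -166 from the start, ALDOC 4, PGK1 3 and LDHA 3. The table of promoters held 29 of the 32 genes, and 18 of the 29 (62.1%) had at least 1 HIF core, beside 43.2% of all 35116 promoters in the table. At least 2 were found in 10 of the 29 (34.5%), beside 16.2% of all promoters, and the E-box in 3 (10.3%), beside 6.34%. TPI1, PGAM1 and PKM, also called higher without empty vector replicate 3, had no match in this window, and HK2 and PDHA1, which were called in no fit, had 3 each. A match is a sequence of letters and not a measured binding site. Both search words contain CG, and the shares were not compared between promoters of like base composition.

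The glucose carriers did not pass the test with all 6 libraries. SLC2A1, the widely expressed carrier GLUT1, had 15169, 13498 and 14842 normalized counts with the empty vector and 12127, 12918 and 13318 with HMGB2 (log2 fold change -0.18, SE 0.099, adjusted p = 0.403). It was the gene in which all HMGB2OE libraries lay below all empty vector libraries. SLC2A3, the high-affinity carrier GLUT3, had 4708, 4450 and 4871 against 5829, 5347 and 5332 (0.23, SE 0.098, adjusted p = 0.181), with every HMGB2OE library the higher. Of its 50-base words, 14.8% also occur in other genes, SLC2A14 foremost.

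Among the enzymes of glucose phosphorylation and isomerisation, HK1, ADPGK and GPI had log2 fold changes of 0.07, 0.08 and 0.13. HK2 had -0.05, and adjusted p lay between 0.708 and 0.955 for all of them. HK2, the hexokinase often induced in tumours, had the largest SE of the 32 genes (0.175), with 4707, 4542 and 3034 normalized counts with the empty vector and 4070, 4307 and 3500 with HMGB2. Its lowest value was that of empty vector replicate 3, and the groups overlapped. The 95% interval of its log2 fold change ran from -0.39 to 0.29.

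Of the phosphofructokinase subunits, which set the pace of the pathway, PFKP (the platelet form) had 17320, 15555 and 14250 normalized counts with the empty vector and 13134, 14610 and 13402 with HMGB2. Its log2 fold change was -0.20 with all libraries (adjusted p = 0.447) and -0.26 without empty vector replicate 3 (adjusted p = 0.0270). PFKL, the liver form, had -0.10 and PFKM, the muscle form, 0.05. The other bifunctional regulators differed in sign. PFKFB3, the form with the strongest kinase activity, had 4669, 4665 and 4115 against 5198, 5785 and 4911 (0.24, adjusted p = 0.282, groups apart), and PFKFB2 had 1026 to 1239 against 871 to 1084 (-0.21, adjusted p = 0.538).

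ALDOA, the main aldolase, had 74624 to 84764 normalized counts with the empty vector and 80534 to 85498 with HMGB2, a log2 fold change of 0.05 (adjusted p = 0.912). The groups overlapped, unlike those of ALDOC, and 47.7% of its 50-base words occur in other annotated genes. TPI1, which interconverts the triose phosphates, had 39617, 39186 and 41094 against 44400, 46235 and 47515 (0.20, SE 0.086, adjusted p = 0.186). Every HMGB2OE library of TPI1 was above every empty vector library, and without empty vector replicate 3 its adjusted p was 0.0274.

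All 6 genes of the payoff steps had positive log2 fold changes, with a median of 0.25, and none passed the test with all libraries. PGK1, which makes the first ATP of this part, had 54577, 51775 and 68331 normalized counts with the empty vector and 68631, 70600 and 80071 with HMGB2. The lowest HMGB2OE library was level with empty vector replicate 3, at 68631 against 68331. The log2 fold change was 0.33 (SE 0.14, adjusted p = 0.179), and without that replicate 0.46 (adjusted p = 1.66e-05). PGAM1, the phosphoglycerate mutase, had 19154, 16717 and 24854 against 23314, 24530 and 29317, so empty vector replicate 3 lay above 2 of the HMGB2OE libraries. Its log2 fold change went from 0.35 (adjusted p = 0.286) to 0.52 without it, and 40.0% of its 50-base words are shared with copies such as PGAM4.

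PKM, pyruvate kinase, had 168646, 158780 and 192161 normalized counts with the empty vector and 193046, 203901 and 223908 with HMGB2 (0.26, adjusted p = 0.249). Its lowest HMGB2OE library was again level with empty vector replicate 3. A count per gene does not separate its splice forms. ENO2, the neuronal enolase, had 4952, 4958 and 4340 against 5717, 5769 and 5415 (0.25, adjusted p = 0.185), with the groups apart. ENO1, the common enolase, had 0.14 and GAPDH 0.07, with adjusted p of 0.691 and 0.817. For GAPDH, whose reads overlap a gene on the opposite strand, the count used held 53.8% of the strand-specific sum, and with that sum its log2 fold change was 0.05.

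LDHA, the lactate dehydrogenase subunit that favours lactate formation, had 61782, 60050 and 80659 normalized counts with the empty vector and 78162, 76772 and 95075 with HMGB2. Empty vector replicate 3 lay above HMGB2OE replicates 1 and 2, and replicate 3 was the highest of its group on both sides. The log2 fold change was 0.30 with all libraries (SE 0.15, adjusted p = 0.320) and 0.45 without empty vector replicate 3 (adjusted p = 0.000206). LDHB, the subunit typical of heart, had 66497 to 70253 against 70717 to 78769 (0.11, adjusted p = 0.714). The lactate carriers showed no call in any fit. SLC16A1 (MCT1) had a log2 fold change of -0.11, with a 95% interval of -0.35 to 0.13, and SLC16A3 (MCT4), the carrier of lactate-exporting cells, 0.01, with an interval of -0.18 to 0.20.

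At the entry of pyruvate to the mitochondrion, PDHA1, the catalytic subunit of pyruvate dehydrogenase, and PDK1, a kinase that switches it off, had log2 fold changes of -0.02 and -0.03. PDK3, another such kinase, had 564, 483 and 676 normalized counts with the empty vector and 650, 657 and 807 with HMGB2 (0.30, SE 0.17, adjusted p = 0.431). Empty vector replicate 3 of PDK3 lay above HMGB2OE replicates 1 and 2. In the glycogen branch, UGP2, which makes the activated glucose for glycogen, had 4218, 4302 and 5141 against 5347, 5209 and 5964 (0.27, adjusted p = 0.232). GBE1, the glycogen branching enzyme, had 4424, 4111 and 5156 against 5466, 5239 and 6091 (0.30, adjusted p = 0.195). Both had the groups apart and were called without empty vector replicate 3, at log2 fold changes of 0.37 and 0.39. PGM1, the phosphoglucomutase, had 0.10 and GYS1, the muscle-type glycogen synthase, 0.03.

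The 32 genes together took 2.33%, 2.20% and 2.45% of the assigned reads in the empty vector libraries and 2.48%, 2.58% and 2.65% in the HMGB2OE libraries. Every HMGB2OE library had the larger share, although empty vector replicate 3 came close to HMGB2OE replicate 1. Per kilobase of the canonical transcript, levels in the empty vector group ran over more than 3 orders of magnitude, from 117 normalized counts per kilobase for PDK1 to 202124 for GAPDH. GAPDH was followed by ENO1 (144061), PKM (75139), LDHB (52591), ALDOA (48638), LDHA (30119) and TPI1 (29582). Most of these are enzymes of the later steps, with ALDOA and TPI1 from the earlier ones. PFKFB4 stood at 972 per kilobase (rank 26 of 32) and ALDOC at 2744 (rank 17), the latter and GAPDH without the reads set aside for overlap with an opposite gene. For neighbours such as PFKFB3 (1000) and PFKFB4 (972), or HK1 (4495) and GPI (4484), the levels with the empty vector did not differ beyond the spread between libraries. A canonical transcript may not be the form these cells use, so the order of levels between genes is approximate.

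**Figure D3:**
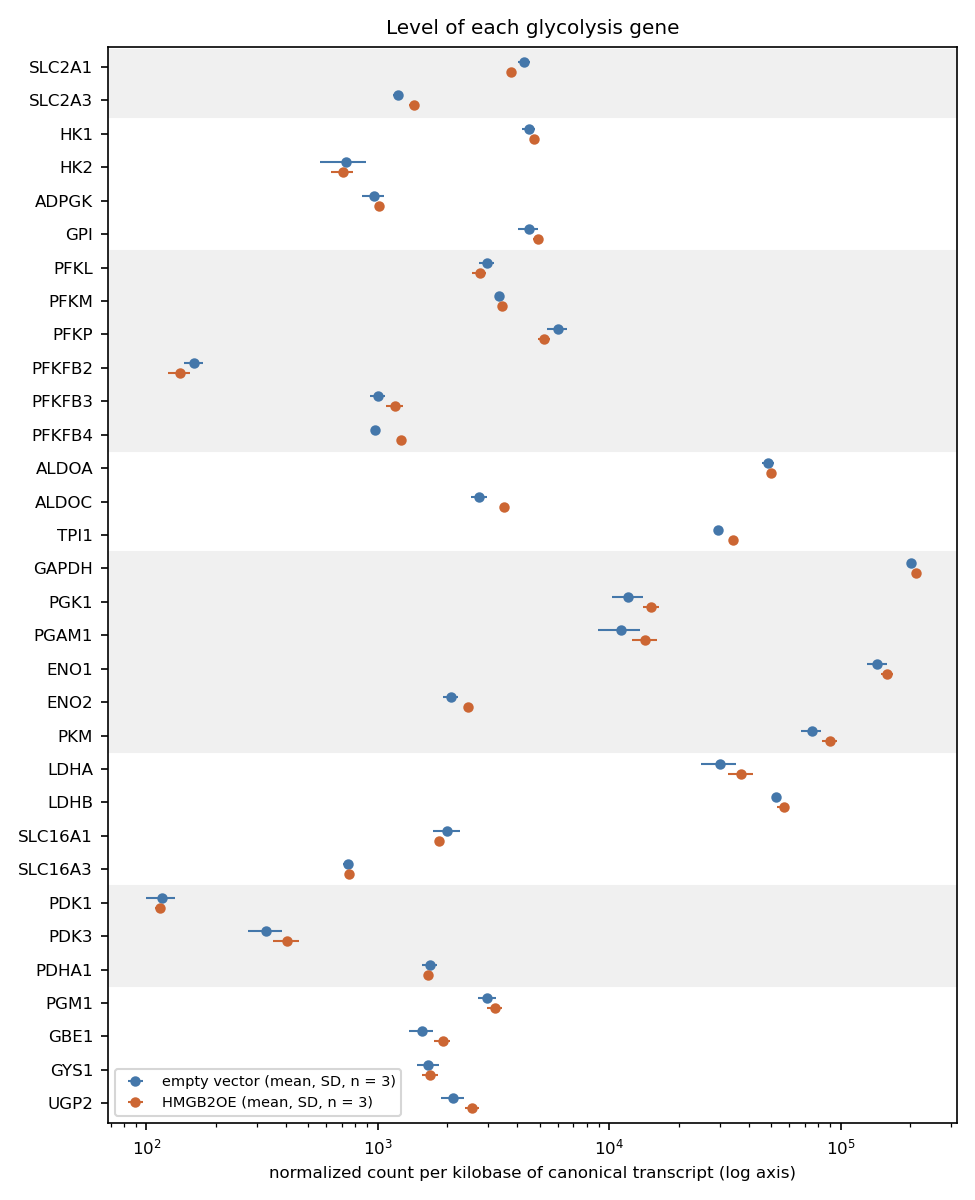
Level of each gene as normalized counts per kilobase of canonical transcript on a log axis, mean and SD of 3 libraries per group. GAPDH, ENO1 and PKM are the highest and PDK1 and PFKFB2 the lowest, and the distance between groups is small beside the distance between genes.

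Because a ratio of 2 genes within a library does not depend on how libraries are scaled, 10 pairs of isoenzymes or carriers were compared as log2 ratios of counts per kilobase. In 4 pairs the groups did not overlap. The ratio of ALDOC to ALDOA was -4.15, -4.19 and -4.11 with the empty vector and -3.84, -3.84 and -3.83 with HMGB2, a difference of 0.31. The ratio of SLC2A3 to SLC2A1 was -1.87, -1.78 and -1.78 against -1.23, -1.45 and -1.50, a difference of 0.42. The balance thus lay further toward ALDOC and toward SLC2A3 in every HMGB2OE library. The ratio of PFKP to PFKM differed by -0.25 and that of PDK1 to PDK3 by -0.32. In each of the 4 the exact two-sided permutation p was 0.1, the smallest that 3 libraries against 3 can give, and 0.25 after adjustment over the 10 pairs, so no pair could pass. For LDHA over LDHB the difference was 0.21 (exact p = 0.3) and the groups overlapped, with -0.58 in empty vector replicate 3 against -0.89 and -0.98 in the others. In the other 5 pairs differences lay between -0.10 and 0.13, with overlap. Without empty vector replicate 3 the difference was 0.32 for LDHA over LDHB, -0.25 for HK2 over HK1 in place of -0.10, and -0.03 for ENO2 over ENO1 in place of 0.11.

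**Figure D4:**
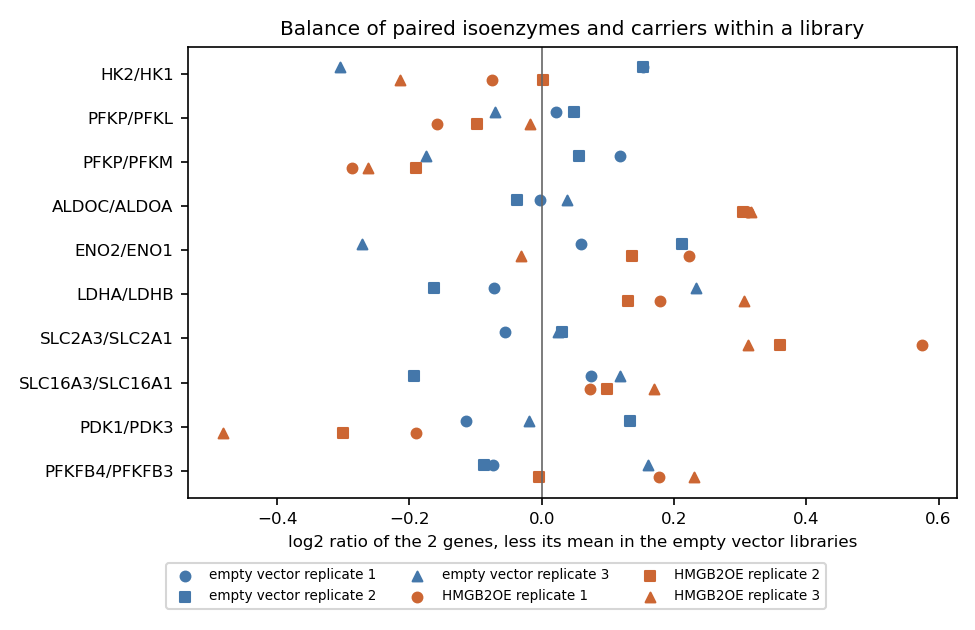
Log2 ratio of paired genes in each library, less its mean in the empty vector libraries. The HMGB2OE libraries lie to the right of all empty vector libraries for ALDOC/ALDOA and SLC2A3/SLC2A1 and to the left for PFKP/PFKM and PDK1/PDK3.

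Outside the 32 genes, 7 lists of related genes held 128 genes, of which 115 received an adjusted p. Of these, 15 (13%) rose and 2 (1.74%) fell, beside the 2.29% and 2.64% of all genes given above, and without empty vector replicate 3 22 of 108 (20.4%) were called higher and 9 (8.33%) lower, beside 8.31% and 9.46% of all genes in that fit. Most of the calls were in the list of hypoxia-inducible genes outside glycolysis, in which 9 of 20 rose and 1 fell, with a median log2 fold change of 0.36. Without empty vector replicate 3, 12 of the 20 were higher and 2 lower. NDRG1, a stress-induced growth regulator, had 10140, 10334 and 9855 normalized counts against 18083, 18665 and 17377 (0.84, SE 0.087, adjusted p = 1.02e-18). ANGPTL4, a secreted inhibitor of lipoprotein lipase, had 365, 412 and 408 against 859, 896 and 827 (1.12, adjusted p = 9.78e-17). Both showed groups far apart, with empty vector replicate 3 beside its own group.

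CA9, a carbonic anhydrase gene, rose by 0.74 on the log2 scale and the mitophagy receptor BNIP3 by 0.50. INSIG2, a brake on sterol synthesis, rose by 0.49 and the lipid droplet coat gene PLIN2 by 0.48. The collagen prolyl hydroxylase genes P4HA1 and P4HA2 rose by 0.44 and 0.41 and the repressor gene BHLHE40 by 0.41. VEGFA, the angiogenic growth factor of the same list, fell by 0.54 on the log2 scale, from 6554, 6232 and 5875 normalized counts to 4372, 4479 and 3984 (adjusted p = 1.49e-05). The list thus did not move in 1 direction. NDRG1, ANGPTL4, CA9 and VEGFA were called in all 14 other fits, and BNIP3, INSIG2, PLIN2, P4HA1, P4HA2 and BHLHE40 in 7 to 11 of them. BNIP3, INSIG2 and BHLHE40 lost the call when any library but empty vector replicate 3 was left out. They were also not called by edgeR (adjusted p = 0.131, 0.0921 and 0.0955), and neither was PLIN2 (adjusted p = 0.0672). BNIP3 and BHLHE40 were each called in only 7 of the 14 fits, and so lost the call in a further setting too. P4HA1 lost it without empty vector replicate 1 or 2 or HMGB2OE replicate 1, and PLIN2 and P4HA2 without empty vector replicate 1 or 2 or HMGB2OE replicate 2 or 3. The highest adjusted p over these fits ran from 0.0704 for P4HA1 to 0.364 for BNIP3.

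Of 17 regulators of glycolytic genes, 1 rose and 0 fell, beside 2.29% and 2.64% of all genes. Without empty vector replicate 3, 1 was called higher and 4 lower, beside 8.31% and 9.46% of all genes in that fit. EPAS1, which encodes the HIF subunit HIF-2α, had 201, 220 and 230 normalized counts with the empty vector and 550, 376 and 350 with HMGB2 (0.97, SE 0.20, adjusted p = 0.000121), with all HMGB2OE libraries the higher and a call in all 14 other fits. HIF1A, the subunit best known for glycolytic targets, had 8994, 10407 and 9826 against 9482, 9312 and 9437 (-0.05, adjusted p = 0.903), and MYC had -0.17 (adjusted p = 0.716). The HIF subunits are controlled mainly through protein stability, which these counts do not measure.

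Among 20 other isoenzymes and glucose carriers with an adjusted p, 1 rose, as 1 of 16 did without empty vector replicate 3. Of all genes, 2.29% and 8.31% were called higher in these fits. SLC2A12, a further glucose carrier (GLUT12), had 40, 46 and 56 normalized counts against 104, 104 and 150 (1.33, SE 0.28, adjusted p = 0.000111). Every HMGB2OE library was above every empty vector library, and it was called in all 14 other fits. Of 12 genes of mitochondrial pyruvate entry 1 rose (2 without empty vector replicate 3), beside the same shares of all genes. The gene was PDK4, a pyruvate dehydrogenase kinase gene, with 2008, 2330 and 2231 against 2885, 2956 and 2978 (0.42, SE 0.10, adjusted p = 0.00209). It was called in 10 of the 14 other fits and not without empty vector replicate 1 or any of the HMGB2OE libraries (highest adjusted p = 0.154).

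Glycogen metabolism had 3 genes higher and 1 lower of 19, beside 2.29% and 2.64% of all genes. Without empty vector replicate 3 it had 3 and 2 of 16, beside 8.31% and 9.46%. PYGB, the brain-type glycogen phosphorylase that releases glucose from glycogen, had 203951, 194769 and 151321 normalized counts with the empty vector and 128879, 129744 and 111503 with HMGB2 (-0.57, SE 0.14, adjusted p = 0.00202). Every HMGB2OE library lay below every empty vector library, and empty vector replicate 3 was the lowest of its group. PGM2L1, which makes glucose bisphosphate, rose by 0.72, and PPP1R3B, which targets a phosphatase to glycogen, by 0.43 on the log2 scale. GYG2, the liver-type primer of glycogen, was called at an adjusted p of 0.0497, on only 2 to 3 normalized counts against 8 to 19, and in none of the 8 other fits that tested it. PYGB had an adjusted p of 0.0508 in edgeR and lost the call without empty vector replicate 1 or HMGB2OE replicate 3 (highest adjusted p = 0.0766). PGM2L1 lost it without empty vector replicate 1 or HMGB2OE replicate 2 (highest adjusted p = 0.0857). PPP1R3B was called in 6 of the 14 other fits. It lost the call when any library but empty vector replicate 3 was left out (highest adjusted p = 0.467), with edgeR (adjusted p = 0.0715) and in further settings.

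No gene of the pentose phosphate pathway (10 genes, median log2 fold change 0.02) or of the tricarboxylic acid cycle (17 genes, median -0.08) was called in either direction by DESeq2 or by edgeR with all libraries. At an unadjusted p under 0.05, both tools gave 1 pentose phosphate gene lower and 1 gene of the cycle higher. The most abundant of the first, TKT and PGD, had log2 fold changes of -0.07 and 0.17, and those of the second, MDH2 and SUCLG2, -0.12 and -0.16. Without empty vector replicate 3, 1 of 10 pentose phosphate genes was called lower and 3 of 17 genes of the cycle higher, beside the 9.46% and 8.31% of all genes in that fit.

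**Figure D5:**
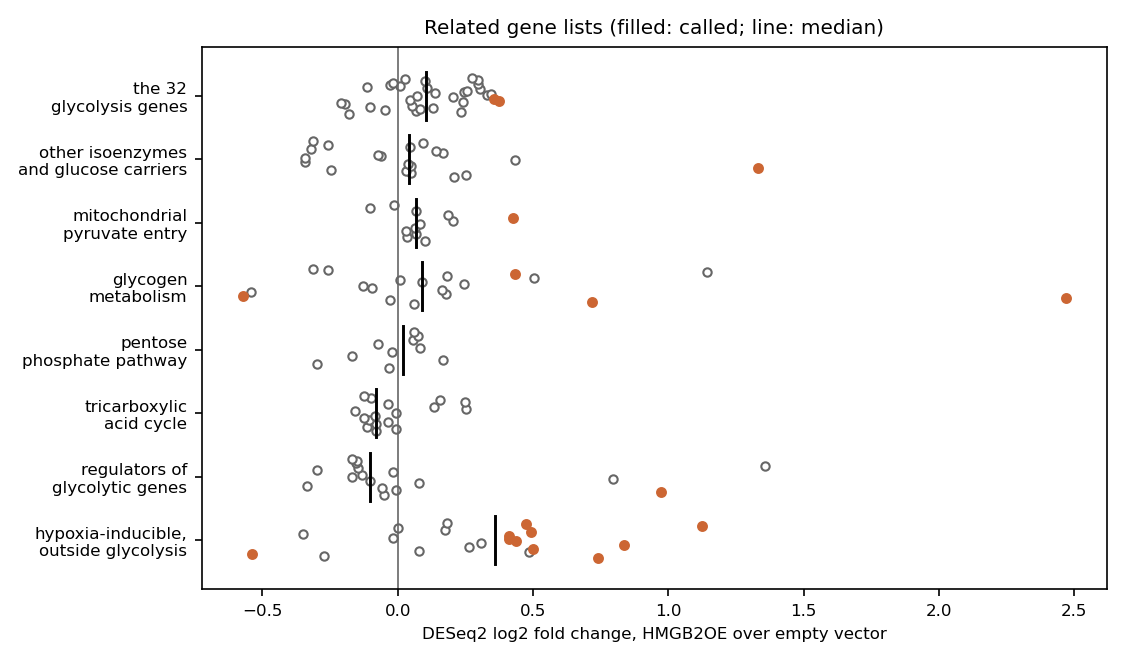
DESeq2 log2 fold change, HMGB2OE over empty vector, of the 32 glycolysis genes and of the genes of 7 related lists that received an adjusted p, filled where called, with the median of each list as a line. The hypoxia-inducible list holds 10 of the filled points, 9 to the right and VEGFA to the left, and the glycolysis genes lie between -0.21 and 0.37.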

How the data were processed

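Quality control with FastQC and trimming with Trimmomatic preceded the alignment to hg38, and the authors deposited STAR tables of raw read counts per gene, with 4 summary lines that were dropped. The aligner version and the annotation release are not given in the sources used here. The count for either strand was used, in which reads shared by genes on opposite strands are left out, and multimapped reads (2.58% to 10.6% of reads, highest in HMGB2OE replicate 3) count for no gene. Symbols came from GENCODE 44 (57532 of 58302 IDs matched) and promoters from RefSeq.

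The test was the Wald test of DESeq2 1.42.0 (R 4.3.3) on the group, with default settings after the study's methods, over all genes with a count. Called means a Benjamini-Hochberg adjusted p under 0.05. The script was tested on simulated data. Log2 fold changes are unshrunken. Isoenzyme ratios used an exact permutation test. The 14 alternatives were edgeR 4.0.16, TMM factors, a filter of 10 counts in 3 libraries, no independent filter, summed stranded columns, a replicate block, a term for the third replicates, replicates 1 and 2 only, and leaving out each of the 6 libraries. Every one of the 32 genes is named, as is each called gene of the related lists and, of a list without calls, the 2 with the highest mean. MYC, HIF1A and the markers KRT5, PTPRC and ALB are named for context. The 32 genes, the lists and the alternatives were chosen with earlier results of these data known.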

Additional observations from a re-analysis of the deposited data

How the results depend on the processing

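Of the glycolysis genes, 2 were called higher and 0 lower with all libraries. The count higher was 1 with edgeR, 12 with the replicate block, 13 with the term for the third replicates, 12 with replicates 1 and 2 only, and 0 to 11 when each library was left out. The count lower was 2 with that term, 2 with replicates 1 and 2 only, and 0 to 1 when each library was left out. Over all genes, in both directions together, 930 of 18836 were called with all libraries and 1826 of 14552 with the replicate block. They were 2733 of 15777 with the term and 2621 of 15028 with replicates 1 and 2 only. Of the related genes, 15 were higher and 2 lower with all libraries. Higher counts were 9 with edgeR, 24 with the term, 23 with replicates 1 and 2 only, and 5 to 22 with a library left out. Lower counts were 1 with edgeR, 8 with the replicate block, 9 with the term, 8 with replicates 1 and 2 only, and 1 to 9 with a library left out. In both lists, among the fits with a library left out, the highest counts came without empty vector replicate 3. Other settings kept counts within 1.5 times. The cause was not tested.

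The replicate numbers were not taken to pair the libraries. Deviations from the group means correlated at 0.0906, 0.142 and 0.349 between libraries numbered 1, 2 and 3. Empty vector replicate 1 correlated best with HMGB2OE replicate 2 (0.212). The replicate block, which gave 12 genes higher beside 1826 of 14552 called in either direction over all genes, thus serves only as an alternative.

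Signs changed in genes near 0. Over the fits with a library left out, the log2 fold change of HK2 ran from -0.223 to 0.0610, ALDOA from -0.0024 to 0.0890, SLC16A3 from -0.0249 to 0.0412, PDK1 from -0.0963 to 0.0947, PDHA1 from -0.0680 to 0.0405, GYS1 from -0.0575 to 0.0859 and KRT14 from -0.173 to 0.193. With replicates 1 and 2 only it was -0.0239 for SLC16A3, 0.0728 for PDK1, 0.0333 for PDHA1 and -0.0215 for KRT14, and with the stranded sum -0.0110 for SLC16A3. The isoenzyme differences moved by less than the spread between replicates in all 70 alternatives. That spread was taken over all 6 libraries and is itself widened by empty vector replicate 3, so the count does not show stability against leaving it out. Without that library ENO2 to ENO1 went from 0.11 to -0.03 and HK2 to HK1 from -0.10 to -0.25. LDHA to LDHB went from 0.21 to 0.32 and PFKFB4 to PFKFB3 from 0.13 to 0.21. Genes with the groups apart went from 11 to 20 higher and from 1 to 5 lower, a setting chosen after seeing the data. The median over all genes moved by under 0.1 with every scaling. Genes with few counts, such as GYG2, are limited by depth.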
